A study of Mus musculus with 10 samples.

Results

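The oligodendrocyte lineage and its myelin were followed through 34 listed genes in mouse brain after transient occlusion of the middle cerebral artery. The list held 2 genes of precursor cells, 3 transcription factors of the whole lineage, 5 genes of differentiating cells, 15 genes of mature myelin, 3 enzymes of myelin lipids and of N-acetylaspartate, and 6 genes that oligodendrocytes share with other cells of the brain. A probe was assigned to 32 of them, and 28 were detected and tested among 9351 genes. Plekhh1 and Enpp2 were not analysed here because no probe was assigned to them. Myrf, the transcription factor that switches on myelin genes, Ermn, a cytoskeletal protein of myelin, and Aspa, which splits N-acetylaspartate, were detected on 0 of the 10 arrays, and Gpr37, a receptor of myelinating cells, was detected on 1. Each of the 28 tested genes was detected on all 10 arrays.

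RNA came from the brain of C57/Bl6 mice aged 10 weeks, of the wild type (WT) or with a CD93 knockout (KO), and was measured on Illumina Mouse-6 bead arrays, which read each transcript by a fluorescent signal on beads that carry its probe. In each genotype 1 array held untreated brain, 2 held the ipsilateral (occluded) and contralateral hemispheres after 60 min of occlusion and 48 h of reperfusion (the 48 h protocol), and 2 held those hemispheres after 30 min of occlusion and 72 h of reperfusion (the 72 h protocol). The design gives 5 conditions with 1 array per genotype in each, so occlusion time and reperfusion time change together and cannot be told apart. The number of mice behind an array, and any match of the hemispheres by animal, are not given in the sources used here. Levels are log2 of background-corrected, quantile-normalised intensity, differences are on that log2 scale with the SE of a limma model, and pairs of levels are given as WT and then KO. The model is additive over condition and genotype. A small p means that a difference was large against the spread left over genotypes and conditions, which limma moderates with that of all genes. Each hemisphere comparison rests on 2 arrays per side.

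Oligodendrocytes arise from precursors that carry the PDGF receptor alpha and the proteoglycan NG2, pass through a short stage marked by GPR17 and BCAS1, and then wrap axons with a membrane rich in galactolipids and in proteins such as MBP, MOG and MAG. SOX10 and the OLIG factors act through the whole lineage. In focal ischaemia mature oligodendrocytes are known to be vulnerable, and precursors at the border of a lesion are known to divide and to differentiate again.

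Between 12811 and 16310 probes of 46373 were detected per array, and median raw intensities lay between 51.4 and 58.9. The 4 ipsilateral arrays had the most detected probes, 14251 to 16310, against 12811 to 13971 on the other 6. The probe of Cd93, the knocked-out gene of an endothelial and myeloid glycoprotein, read 6.92, 6.38, 8.66, 6.17 and 7.83 on the WT arrays (untreated, contralateral and ipsilateral at 48 h, contralateral and ipsilateral at 72 h) and 5.33, 5.39, 6.23, 5.10 and 6.24 on the KO arrays in that order. It was lower in KO in each of the 5 conditions, and its place relative to the deleted sequence is not given in the sources used here. The labelled tissue carried the genes of brain cells, with 13 of 14 neuronal and 12 of 13 astrocyte markers detected.

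The ipsilateral hemisphere held higher levels of lineage genes than the contralateral one under both protocols. At 48 h 10 of the 28 genes were higher and 0 lower (limma, adjusted p under 0.05), where 12.7% of all genes were higher and 8.06% lower. At 72 h 13 were higher and 0 lower, where 10.3% of all genes were higher and 4.13% lower. The median difference of the 28 genes was 0.36 at 48 h and 0.37 at 72 h, and that of all tested genes was -0.02 and -0.05. Because whole tissue was measured, fewer cells of a type and less RNA per cell cannot be told apart, and the same holds for more of either. Ipsilateral levels were above contralateral ones in all 4 pairs of arrays for 21 genes (21.6% of all genes) and below them in all 4 pairs for 3, Omg, Nkx6-2 and Ptgds (27.4% of all genes), whose 48 h differences turned above 0 with median centring. The 4 ipsilateral arrays lay above all 6 other arrays for 7 genes, Pdgfra, Sox10, Bcas1, Mag, Cldn11, Klk6 and Gsn (11.6% of all genes), and, with quantile normalisation, below them for 1, Omg (8.83%).

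Leaving out arrays changed these counts. A fit with the hemispheres of 1 genotype and protocol as a pair, chosen after seeing the data, called 15 members higher and 2 lower at 48 h and 15 higher at 72 h, but the labels do not say that the hemispheres of a pair share animals. At 48 h 4 genes passed without the KO ipsilateral, the WT ipsilateral or the WT contralateral array of that protocol, and 5 without the KO contralateral one. At 72 h 5 passed without the WT ipsilateral array, 6 without either KO array and 8 without the WT contralateral array of that protocol. Median centring in place of quantile normalisation raised the median of all genes to 0.43 at 48 h and gave 21 called members there, with 4880 of all genes higher and 43 lower against 1185 and 754, so the members are also given relative to that median. Against that median, 20 of the 28 genes were above it at 48 h and 23 at 72 h, and 22 and 24 with quantile normalisation. At 72 h median centring gave 14 called members, with 1118 of all genes higher and 70 lower against 962 and 386.

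**Figure D1:**
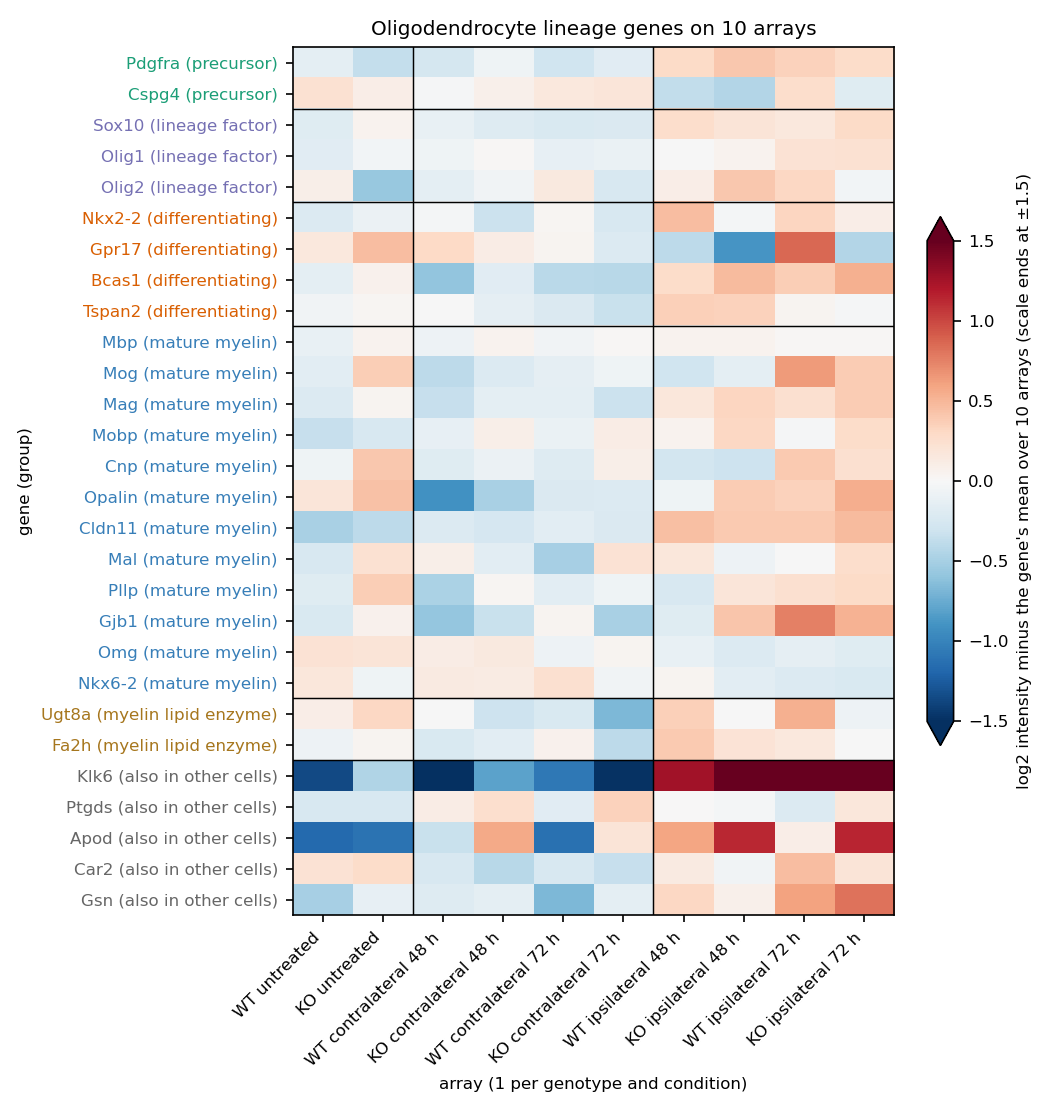
Levels of the 28 tested genes (rows, ordered by role) on the 10 arrays (columns), as log2 intensity minus the mean of that gene over the 10 arrays. The 4 ipsilateral columns on the right are mostly red for genes such as Bcas1, Cldn11 and Klk6, while Omg is pale blue there with quantile normalisation (its 48 h difference turned to 0.11 with median centring) and Gpr17 is blue on the ipsilateral 48 h arrays and red on the WT ipsilateral 72 h array.

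Under both protocols 8 genes passed the threshold as higher: Pdgfra, Sox10, Bcas1, Mag, Opalin, Cldn11, Klk6 and Car2. Fa2h and Tspan2 passed at 48 h alone, and Mog, Gjb1, Ugt8a, Apod and Gsn at 72 h alone, but the test of the difference between protocols passed for none of the 28 genes. Over all genes that test called 0 of 9351 (limma, 0%), with 1017 genes and 4 of the members at an unadjusted p under 0.05. The 13 genes that passed under neither protocol were Cspg4, Olig1, Olig2, Nkx2-2, Gpr17, Mbp, Mobp, Cnp, Mal, Pllp, Omg, Nkx6-2 and Ptgds. Bcas1, Opalin, Cldn11 and Klk6 at 48 h, and Bcas1, Klk6 and Gsn at 72 h, kept their call under every alternative that was run, each of the 10 arrays left out included.

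**Figure D2:**
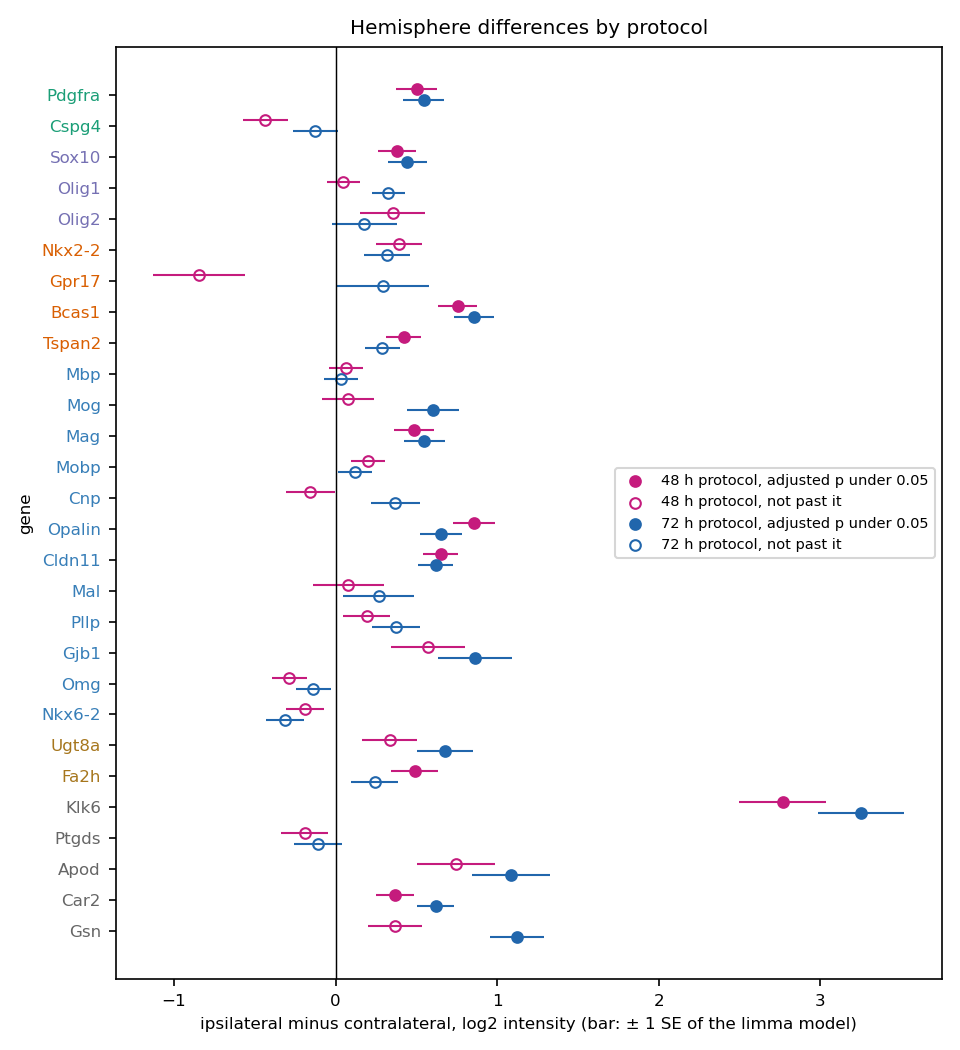
Ipsilateral minus contralateral difference (log2 intensity, horizontal axis) for each of the 28 genes (vertical axis) in the 48 h (pink) and 72 h (blue) protocols, with bars of 1 SE of the limma model and filled points where the adjusted p was under 0.05. Klk6 stands far to the right at 2.77 and 3.26, most other genes lie between 0 and 1.12, and Gpr17 lies at -0.85 at 48 h and 0.30 at 72 h.

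Promoter sequence is printed for 4 genes that were higher ipsilaterally than contralaterally under both protocols. They are the one with the largest difference (Klk6) and 3 of mature myelin. Against untreated brain the 4 differed, as ipsilateral Klk6 and Cldn11 passed as higher at both times and Opalin at neither. RefSeq windows for the build GRCm38.p6 run from 250 bases before to 50 after a listed start, and 20 of the 28 genes have at least 1, with 29 windows among them. Capitals mark matches, on either strand, to 3 motifs: ACAAAG, a core bound by SOX factors, CAGCTG, an E-box bound by factors such as the OLIG proteins, and CTGGNAC, a core reported for MYRF. The SOX core was present in 11 of the 29 windows (37.9%) and in 18.7% of all 32851 windows, the E-box in 5 (17.2%) and 16.3%, and the MYRF core in 11 (37.9%) and 19.3%. By gene these were 9, 4 and 9 of the 20. Windows of tested genes were counted whether or not the gene passed, several starts of a gene count separately, and no difference from all windows was tested. A match describes letters in a window and is not a bound site. Klk6 (chr7:43824294-43824593, plus strand, 1 of 2 listed starts) holds 1 match, a SOX core that begins at -193 from the start. Opalin (chr19:41077064-41077363, minus strand) holds 4, SOX cores at -139 and 24, an E-box at -1 and a MYRF core on the reverse strand at 37. Cldn11 (chr3:31149670-31149969, plus strand) holds 0. Mag (chr7:30914814-30915113, minus strand, 1 of 3 listed starts) holds 3, a SOX core on the reverse strand at -126, a MYRF core on the reverse strand at -159 and another on the gene's strand at -68. The sequences read 5′ to 3′ on the strand of the gene.
Klk6: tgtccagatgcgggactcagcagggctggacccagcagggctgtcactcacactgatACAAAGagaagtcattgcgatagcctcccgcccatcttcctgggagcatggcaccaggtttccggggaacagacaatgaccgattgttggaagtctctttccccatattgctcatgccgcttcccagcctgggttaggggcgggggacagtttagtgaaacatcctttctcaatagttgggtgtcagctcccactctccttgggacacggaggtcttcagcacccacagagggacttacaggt
Opalin: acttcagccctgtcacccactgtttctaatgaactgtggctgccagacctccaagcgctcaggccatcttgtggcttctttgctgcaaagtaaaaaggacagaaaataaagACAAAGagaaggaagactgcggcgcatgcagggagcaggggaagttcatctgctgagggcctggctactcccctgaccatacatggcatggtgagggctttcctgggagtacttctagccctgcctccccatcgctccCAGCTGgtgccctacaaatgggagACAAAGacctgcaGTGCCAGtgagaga
Cldn11: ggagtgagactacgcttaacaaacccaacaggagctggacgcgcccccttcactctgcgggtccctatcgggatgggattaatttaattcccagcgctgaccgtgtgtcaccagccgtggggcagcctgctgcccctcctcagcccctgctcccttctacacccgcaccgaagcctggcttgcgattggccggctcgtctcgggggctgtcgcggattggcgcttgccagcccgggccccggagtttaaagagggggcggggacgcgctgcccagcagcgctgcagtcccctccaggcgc
Mag: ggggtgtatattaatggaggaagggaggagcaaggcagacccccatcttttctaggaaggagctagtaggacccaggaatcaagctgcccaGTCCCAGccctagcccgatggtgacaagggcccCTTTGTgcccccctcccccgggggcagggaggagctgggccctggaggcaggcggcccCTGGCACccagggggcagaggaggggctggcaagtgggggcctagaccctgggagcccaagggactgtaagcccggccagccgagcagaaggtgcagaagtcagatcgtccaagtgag

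The 2 genes that define precursors did not move together. Pdgfra, the receptor through which platelet-derived growth factor keeps precursors dividing, was higher in the ipsilateral hemisphere, and Cspg4, which encodes the NG2 proteoglycan of the same cells and of pericytes, was not. Pdgfra read 9.04 and 8.83 in untreated brain, 8.93 and 9.13 contralaterally and 9.47 and 9.59 ipsilaterally in the 48 h protocol, and 8.90 and 9.02 contralaterally and 9.53 and 9.47 ipsilaterally in the 72 h protocol. All 4 ipsilateral arrays lay above the other 6. The hemisphere difference of Pdgfra was 0.50 ± 0.13 (adjusted p = 0.0226) at 48 h and 0.55 ± 0.13 (adjusted p = 0.0175) at 72 h, higher in 4 of 4 pairs. The 48 h call was lost under 3 of 19 alternatives and the 72 h call under 4. With arrays left out the differences ran from 0.40 to 0.61 at 48 h and from 0.48 to 0.61 at 72 h. Levels of Cspg4 were 7.58 and 7.45 without treatment. They were 7.34 and 7.43 (contralateral) and 6.98 and 6.91 (ipsilateral) at 48 h, and 7.51 and 7.53 and 7.62 and 7.17 at 72 h. The 48 h ipsilateral arrays were the lowest of the 10 for Cspg4, and at 72 h the WT ipsilateral array was the highest while the KO one was low. Its difference was -0.44 ± 0.14, adjusted p = 0.0514 at 48 h and -0.12 ± 0.14, adjusted p = 0.588 at 72 h, which did not pass, and with median centring these became 0.050 and 0.039. Against untreated brain Cspg4 fell at 48 h (-0.57 ± 0.14, adjusted p = 0.0152), a call that median centring removed (0.0024). Of the 18 other measured genes of precursors and committed precursors (31 listed), 2 were higher and 3 lower at 48 h and 0 either way at 72 h, where limma gave 3 at an unadjusted p under 0.05. The 3 lower ones were Neu4, a sialidase (-0.68, adjusted p = 0.0189), Cacng4, an AMPA receptor subunit (-0.68, adjusted p = 0.0188), and Matn4, a matrix protein (-0.58, adjusted p = 0.0162). The 2 higher ones were Rras2 (limma, 0.57, adjusted p = 0.015) and Fyn (0.48, adjusted p = 0.0276, not detected on 8 of 10 arrays). These calls used quantile normalisation. With median centring 43 of all genes were lower at 48 h against 754, and values of these 5 genes under it are not given here.

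Perivascular fibroblasts and pericytes also express Pdgfra or Cspg4. Of 8 measured fibroblast markers 3 were higher at each time, with Dcn, a matrix proteoglycan, at 1.63 and 1.51, and the summed log2 level of the list was 12.37 to 12.42 untreated, 12.13 to 12.25 contralaterally and 12.30 to 12.55 ipsilaterally. Col1a2, Col3a1, Foxc1, Ogn and Fmod, which also mark fibroblasts, were not among the tested genes. Of 7 measured pericyte markers 1 was higher at 48 h and 3 at 72 h, with a summed level of 10.69 to 10.85 untreated, 10.44 to 10.64 contralaterally and 10.57 to 10.96 ipsilaterally. All 10 measured cell cycle genes were higher under both protocols, among them Prc1, a protein of the dividing spindle (1.97 and 3.15). The part of these lists in the result for Pdgfra was not tested.

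Among the 3 lineage factors Sox10, the factor that drives myelin genes together with MYRF, was higher ipsilaterally than contralaterally under both protocols. Sox10 read 9.96 and 10.20 in untreated brain, 10.03 and 9.95 contralaterally and 10.41 and 10.34 ipsilaterally in the 48 h protocol, and 9.92 and 9.93 contralaterally and 10.31 and 10.43 ipsilaterally in the 72 h protocol. The ipsilateral arrays lay above all others, with the KO untreated array next. Its difference was 0.38 ± 0.12, adjusted p = 0.0482 at 48 h and 0.45 ± 0.12, adjusted p = 0.0328 at 72 h, and the 48 h call was lost under 10 of 19 alternatives and the 72 h call under 6. Against untreated brain, ipsilateral Sox10 passed at neither time (0.29 ± 0.12, adjusted p = 0.0974, and 0.29 ± 0.12, adjusted p = 0.107). Levels of Olig1 were 12.09 and 12.22 without treatment. They were 12.19 and 12.28 (contralateral) and 12.25 and 12.32 (ipsilateral) at 48 h, and 12.14 and 12.17 and 12.47 and 12.49 at 72 h. Olig1, which promotes maturation and repair, was highest on both 72 h ipsilateral arrays, and the 48 h ipsilateral arrays overlapped the rest. The 72 h difference of Olig1 (0.33 ± 0.10, adjusted p = 0.063) did not pass, and against untreated brain it did (0.33 ± 0.10, adjusted p = 0.0463). Olig2, which specifies the lineage, ranged from 7.01 on the KO untreated array to 7.99 on the KO ipsilateral 48 h array, and its differences of 0.35 ± 0.20 and 0.18 ± 0.20 did not pass (adjusted p = 0.238 and 0.593).

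The 4 tested genes of differentiating cells split. Bcas1, which marks cells that are beginning to myelinate, rose under both protocols, Tspan2, a tetraspanin of early myelin, rose at 48 h, and Gpr17, a receptor of committed precursors, had a difference below 0 at 48 h that did not pass the test. Bcas1 read 11.93 and 12.13 in untreated brain, 11.49 and 11.90 contralaterally and 12.35 and 12.55 ipsilaterally in the 48 h protocol, and 11.67 and 11.66 contralaterally and 12.44 and 12.61 ipsilaterally in the 72 h protocol. The ipsilateral arrays lay above all others, and the 4 contralateral arrays lay below both untreated ones. The difference was 0.76 ± 0.12, adjusted p = 0.00259 (1.69-fold) at 48 h and 0.86 ± 0.12, adjusted p = 0.00102 (1.81-fold) at 72 h. Levels of Tspan2 were 10.07 and 10.15 without treatment. They were 10.12 and 9.99 (contralateral) and 10.49 and 10.47 (ipsilateral) at 48 h, and 9.91 and 9.80 and 10.17 and 10.11 at 72 h. The 48 h ipsilateral arrays were the highest for Tspan2, and the 72 h ipsilateral arrays overlapped the untreated ones. Its difference was 0.42 ± 0.11, adjusted p = 0.0247 at 48 h and 0.29 ± 0.11, adjusted p = 0.112 at 72 h. A second probe of Tspan2, detected on 10 arrays, passed at neither time over all detected probes. It gave 0.31 ± 0.13 (adjusted p = 0.136) and 0.23 ± 0.13 (adjusted p = 0.324). Against untreated brain that probe passed at both times (0.57 ± 0.13, adjusted p = 0.0145, and 0.44 ± 0.13, adjusted p = 0.043). The first probe was 0.37 ± 0.11 and 0.03 ± 0.11 there.

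Gpr17 read 8.56 and 8.86 in untreated brain, 8.70 and 8.51 contralaterally and 8.0 and 7.52 ipsilaterally in the 48 h protocol, and 8.44 and 8.20 contralaterally and 9.27 and 7.96 ipsilaterally in the 72 h protocol. Both 48 h ipsilateral arrays were below the untreated and contralateral arrays, the WT ipsilateral 72 h array was the highest of the 10, and the KO one was among the lowest. The difference of Gpr17 was -0.85 ± 0.28, adjusted p = 0.0614 at 48 h and 0.30 ± 0.28, adjusted p = 0.527 at 72 h, and its change between protocols was 1.14 ± 0.40 (adjusted p = 0.338). Without the WT ipsilateral 72 h array the 72 h difference was -0.28. The 48 h difference passed without background correction (-0.76, adjusted p = 0.037), in the authors' value table (-0.77, adjusted p = 0.0476) and with the 4 arrays of that protocol alone (-0.85, adjusted p = 0.00151), among others, while median centring gave -0.35 (adjusted p = 0.272). The adjusted p of its alternatives ran from 0.00151 to 0.272. Against untreated brain Gpr17 fell at 48 h (-0.95 ± 0.28, adjusted p = 0.0336), a call lost under 6 of 16 alternatives, which ran from -1.38 to -0.36. Nkx2-2, a homeodomain factor of the switch to differentiation, ranged from 5.96 to 6.75, was higher ipsilaterally in 4 of 4 pairs, and did not pass (0.39 ± 0.14, adjusted p = 0.0772 and 0.32 ± 0.14, adjusted p = 0.173).

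**Figure D3:**
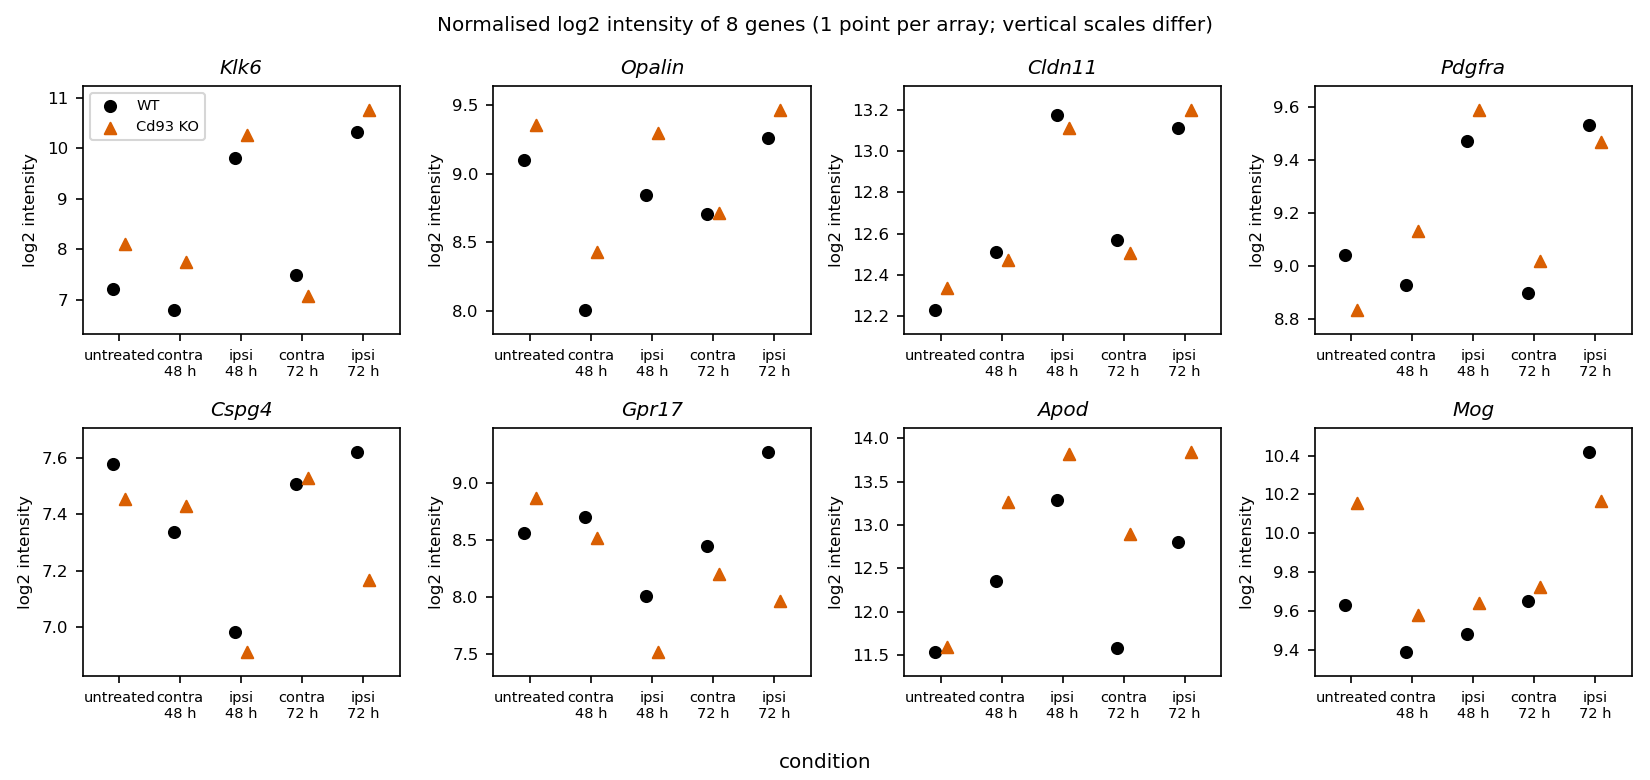
Normalised log2 intensity (vertical axes, which differ between panels) of 8 genes on each of the 10 arrays, by condition (horizontal axis), with WT as black circles and Cd93 KO as orange triangles. Klk6, Cldn11 and Pdgfra are highest on all ipsilateral arrays, Gpr17 is lowest on the KO ipsilateral arrays and the WT ipsilateral 48 h array, Cspg4 is lowest on both 48 h ipsilateral arrays with quantile normalisation (its 48 h difference was 0.050 with median centring), and Opalin is lowest on the contralateral 48 h arrays.

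Of the 12 tested genes of mature myelin, Mag, Opalin and Cldn11 were higher ipsilaterally than contralaterally under both protocols. Mog and Gjb1 were so at 72 h, and none was called lower. The median of the 12 was 0.14 at 48 h and 0.37 at 72 h. Against untreated brain, ipsilateral Mag at 48 h (0.32 ± 0.13, adjusted p = 0.0834) and Mog at 72 h (0.40 ± 0.16, adjusted p = 0.101) did not pass. Mag read 11.91 and 12.16 in untreated brain, 11.78 and 11.97 contralaterally and 12.28 and 12.43 ipsilaterally in the 48 h protocol, and 11.96 and 11.80 contralaterally and 12.36 and 12.50 ipsilaterally in the 72 h protocol. Mag, the adhesion protein that faces the axon, was higher on every ipsilateral array than on any other. Its difference was 0.48 ± 0.13, adjusted p = 0.025 and 0.55 ± 0.13, adjusted p = 0.016, and the 48 h call was lost without any 1 of the 4 arrays of that protocol (adjusted p from 0.0692 to 0.17). Levels of Cldn11 were 12.23 and 12.33 without treatment. They were 12.51 and 12.47 (contralateral) and 13.18 and 13.11 (ipsilateral) at 48 h, and 12.57 and 12.50 and 13.11 and 13.20 at 72 h. Cldn11, the claudin that seals myelin layers, was higher on all 4 ipsilateral arrays than on all others, and the untreated arrays were the lowest. Its difference was 0.65 ± 0.11, adjusted p = 0.00301 (1.57-fold) and 0.62 ± 0.11, adjusted p = 0.00373 (1.54-fold), and against untreated brain it was 0.86 ± 0.11 and 0.87 ± 0.11.

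Opalin read 9.10 and 9.36 in untreated brain, 8.01 and 8.43 contralaterally and 8.85 and 9.30 ipsilaterally in the 48 h protocol, and 8.70 and 8.71 contralaterally and 9.26 and 9.47 ipsilaterally in the 72 h protocol. Opalin, a membrane glycoprotein of the paranodal myelin of mammals, was lowest on the contralateral arrays, and the ipsilateral arrays overlapped the untreated ones. The hemisphere difference was 0.86 ± 0.13, adjusted p = 0.00185 (1.81-fold) at 48 h and 0.65 ± 0.13, adjusted p = 0.00777 at 72 h. Against untreated brain, however, the ipsilateral levels differed by -0.16 ± 0.13, adjusted p = 0.406 and 0.13 ± 0.13, adjusted p = 0.486, which did not pass. Levels of Mog were 9.63 and 10.16 without treatment. They were 9.39 and 9.58 (contralateral) and 9.48 and 9.64 (ipsilateral) at 48 h, and 9.65 and 9.72 and 10.42 and 10.17 at 72 h. Mog, a minor protein of the outer myelin surface, was highest on the 72 h ipsilateral arrays and on the untreated KO array, and the 48 h ipsilateral arrays overlapped the contralateral ones. Its difference was 0.08 ± 0.16, adjusted p = 0.772 at 48 h and 0.60 ± 0.16, adjusted p = 0.0329 at 72 h, where the value without the WT ipsilateral array was 0.36 (adjusted p = 0.234, the highest of its alternatives, which began at 0.00704). Gjb1 read 6.3 and 6.60 in untreated brain, 5.95 and 6.20 contralaterally and 6.34 and 6.95 ipsilaterally in the 48 h protocol, and 6.57 and 6.04 contralaterally and 7.29 and 7.05 ipsilaterally in the 72 h protocol. Gjb1, the gap junction protein connexin 32, was highest on both 72 h ipsilateral arrays, followed by the KO ipsilateral 48 h array. Its difference was 0.57 ± 0.23, adjusted p = 0.103 at 48 h and 0.86 ± 0.23, adjusted p = 0.0317 at 72 h, and without the KO contralateral 72 h array the latter was 0.49 (adjusted p = 0.247, the highest of its alternatives, which began at 0.00152).

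The other 7 genes of mature myelin did not pass in either hemisphere comparison. Mobp, a basic protein of the major dense line, was higher in 4 of 4 pairs (0.20 ± 0.11 and 0.12 ± 0.11), as were Mal, a proteolipid of membrane sorting (0.08 ± 0.22 and 0.27 ± 0.22), and Pllp, the related plasmolipin (0.19 ± 0.15 and 0.37 ± 0.15). Mal turned to -0.20 without the WT ipsilateral 48 h array, -0.19 without the KO contralateral 48 h array and -0.060 without the WT contralateral 72 h array. Cnp read 8.57 and 9.04 in untreated brain, 8.46 and 8.56 contralaterally and 8.37 and 8.34 ipsilaterally in the 48 h protocol, and 8.44 and 8.73 contralaterally and 9.03 and 8.88 ipsilaterally in the 72 h protocol. Cnp, the enzyme that keeps cytoplasmic channels of myelin open, was highest on the untreated KO and the 72 h ipsilateral arrays and lowest on the 48 h ipsilateral ones. Its difference was -0.16 ± 0.15, adjusted p = 0.493 at 48 h, which turned to 0.34 with median centring, and 0.37 ± 0.15, adjusted p = 0.138 at 72 h. Omg, a myelin glycoprotein that neurons also express, was lower in 4 of 4 pairs (-0.29 ± 0.11 and -0.14 ± 0.11, adjusted p = 0.0872 and 0.432, and 0.11 at 48 h with median centring), with 11.47 to 11.56 on the ipsilateral and 11.59 to 11.89 on the other arrays. Nkx6-2, a homeodomain factor of myelinating cells, was by its brightest probe also lower in 4 of 4 pairs (-0.19 ± 0.12 and -0.31 ± 0.12, adjusted p = 0.272 and 0.111, and 0.30 at 48 h with median centring). Its other detected probes gave -0.40 ± 0.15 and -0.11 ± 0.15 at 48 h and -0.02 ± 0.15 and -0.07 ± 0.15 at 72 h, and neither passed. The former was higher ipsilaterally in the WT 72 h pair (7.69 against 7.61).

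Mbp, the basic protein that compacts myelin, gave no usable difference from its brightest probe. That probe read from 13.75 to 13.92, and the levels of both hemispheres were equal in KO under each protocol. Its raw intensity ran from 11682.7 to 17808.2, rank 6 to 16 among all probes of an array, where quantile normalisation gives nearly the same value to a rank on each array. The difference was 0.07 ± 0.11 and 0.03 ± 0.11. The other 3 detected probes of Mbp, which cite 3 different transcript records, gave -0.26 ± 0.11, -0.34 ± 0.23 and -0.22 ± 0.20 at 48 h and -0.36 ± 0.11, 0.57 ± 0.23 and 0.33 ± 0.20 at 72 h, and none passed over all 16067 detected probes. Averaged over all 4 probes the 48 h hemisphere difference was -0.19. Against untreated brain, over all detected probes, the probe at -0.34 passed as lower ipsilaterally at 48 h (limma, -0.86 ± 0.23, adjusted p = 0.0231). At 72 h it did not (-0.32 ± 0.23, adjusted p = 0.328). The probes at -0.26 and -0.22 gave -0.10 ± 0.11 and -0.36 ± 0.20 against untreated brain at 48 h and did not pass. Several detected probes were present for 8 genes, 22 in all. In the fit over all detected probes, the second probe of Mog gave 0.06 ± 0.18 and 0.64 ± 0.18 beside 0.08 ± 0.17 and 0.60 ± 0.17, and that of Gsn, detected on 4 arrays, 0.24 ± 0.16 and 0.81 ± 0.16 beside 0.37 ± 0.17 and 1.12 ± 0.17. For Mal the second probe gave 0.49 ± 0.16 at 48 h and -0.14 ± 0.16 at 72 h, which did not pass. The 5 probes of Mobp lay between 0.14 and 0.46 at 48 h, where the second brightest passed (0.46 ± 0.12, adjusted p = 0.0359), and between -0.039 and 0.32 at 72 h. The dimmest Mobp probe passed over all detected probes for contralateral minus untreated at 48 h (0.84 ± 0.12, adjusted p = 0.0289) and for genotype (0.40 ± 0.077, adjusted p = 0.0463).

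**Figure D4:**
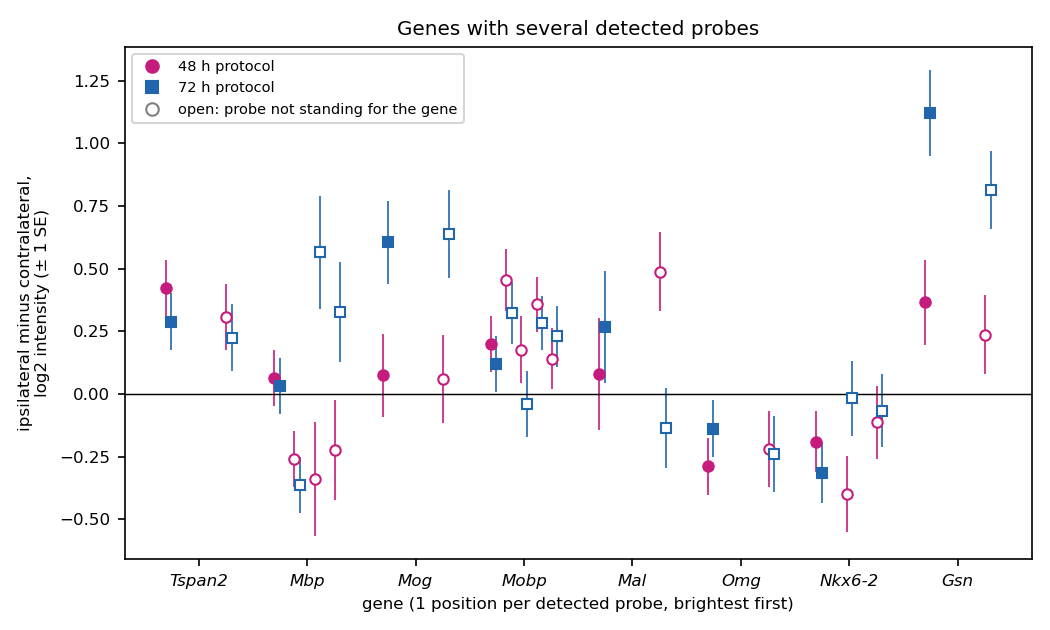
Ipsilateral minus contralateral difference (log2 intensity, vertical axis, bars of 1 SE) of each of the 22 detected probes of 8 genes (horizontal axis), at 48 h (pink circles) and 72 h (blue squares), filled for the probe that stands for the gene. The probes of Mog, Gsn and Omg lie close together, while those of Mbp and Mal lie on both sides of 0.

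Both tested enzymes of myelin lipids were higher in the ipsilateral hemisphere, each past the threshold in 1 protocol. Ugt8a read 8.54 and 8.75 in untreated brain, 8.43 and 8.13 contralaterally and 8.80 and 8.43 ipsilaterally in the 48 h protocol, and 8.21 and 7.77 contralaterally and 8.97 and 8.36 ipsilaterally in the 72 h protocol. Ugt8a, which makes galactosylceramide, was lower in KO than in WT on each of the 4 pairs of operated arrays, and the ipsilateral arrays overlapped the untreated ones. Its difference was 0.33 ± 0.17, adjusted p = 0.191 at 48 h and 0.68 ± 0.17, adjusted p = 0.0278 at 72 h, and against untreated brain it was -0.03 ± 0.17 and 0.02 ± 0.17. Levels of Fa2h were 9.24 and 9.35 without treatment. They were 9.08 and 9.16 (contralateral) and 9.70 and 9.51 (ipsilateral) at 48 h, and 9.37 and 8.92 and 9.47 and 9.30 at 72 h. Fa2h, which hydroxylates the fatty acids of galactolipids, was highest on the WT and KO ipsilateral 48 h arrays. Its difference was 0.49 ± 0.15, adjusted p = 0.0414 at 48 h, a call lost under 8 of 19 alternatives, and 0.24 ± 0.15, adjusted p = 0.304 at 72 h. Of 19 other measured genes of myelin lipid and cholesterol synthesis (23 listed), 4 were higher at 48 h, 3 at 72 h and 0 lower. Elovl1, which lengthens fatty acids (0.75 and 0.69), and Cers2, which joins them to sphingoid bases (0.42 and 0.49), passed at both times, and the median of the list was 0.16 and 0.13. Lss (0.65, not detected on 2 of 10 arrays) and Srebf2 (0.49) passed at 48 h alone. Elovl7 (0.64, not detected on 7 of 10 arrays) passed at 72 h alone.

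Among the genes that other cells of the brain also express were the largest difference at both times, that of Klk6, and at 72 h the next largest, those of Gsn and Apod. Klk6 read 7.21 and 8.11 in untreated brain, 6.79 and 7.75 contralaterally and 9.82 and 10.26 ipsilaterally in the 48 h protocol, and 7.49 and 7.08 contralaterally and 10.31 and 10.76 ipsilaterally in the 72 h protocol. Klk6, a secreted serine protease of oligodendrocytes that cleaves myelin and matrix proteins, stood on the ipsilateral arrays above all others, and the other 6 arrays ran from 6.79 to 8.11. It rose by 2.77 ± 0.27, adjusted p = 0.00014 (6.81-fold) at 48 h and by 3.26 ± 0.27, adjusted p = 2.85e-05 (9.55-fold) at 72 h. Levels of Apod were 11.54 and 11.59 without treatment. They were 12.36 and 13.26 (contralateral) and 13.29 and 13.83 (ipsilateral) at 48 h, and 11.58 and 12.89 and 12.80 and 13.84 at 72 h. Apod, a lipocalin of oligodendrocytes, astrocytes and perivascular cells, was lowest on the untreated arrays and on the WT contralateral 72 h array, and the contralateral KO arrays overlapped the ipsilateral ones. Its hemisphere difference was 0.75 ± 0.24, adjusted p = 0.0542 at 48 h and 1.09 ± 0.24, adjusted p = 0.0145 at 72 h. Against untreated brain it was higher ipsilaterally at both times (2.0 ± 0.24, adjusted p = 0.000367, and 1.76 ± 0.24, adjusted p = 0.000628), and contralaterally it was 1.25 ± 0.24, adjusted p = 0.0667 at 48 h and 0.68 ± 0.24, adjusted p = 0.181 at 72 h. The raw intensity of Apod ranked 10 and 9 among all probes on the KO ipsilateral 48 h and 72 h arrays. Near the top ranks quantile normalisation limits how far a level can rise, and the effect on the differences of Apod was not tested.

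Gsn read 5.97 and 6.34 in untreated brain, 6.26 and 6.31 contralaterally and 6.77 and 6.54 ipsilaterally in the 48 h protocol, and 5.78 and 6.31 contralaterally and 7.06 and 7.27 ipsilaterally in the 72 h protocol. Gsn, which severs actin filaments and is also made by macrophages and fibroblasts, was higher on all ipsilateral arrays than elsewhere and highest at 72 h. Its difference was 0.37 ± 0.17, adjusted p = 0.145 at 48 h and 1.12 ± 0.17, adjusted p = 0.0014 (2.17-fold) at 72 h, and the change between protocols did not pass (0.75 ± 0.24, adjusted p = 0.287). Levels of Car2 were 10.19 and 10.24 without treatment. They were 9.73 and 9.55 (contralateral) and 10.10 and 9.91 (ipsilateral) at 48 h, and 9.73 and 9.62 and 10.43 and 10.16 at 72 h. Car2, the carbonic anhydrase of oligodendrocytes, choroid plexus and erythrocytes, was lowest on the 4 contralateral arrays, and ipsilateral and untreated arrays overlapped. Its hemisphere difference was 0.37 ± 0.12, adjusted p = 0.0492 and 0.62 ± 0.12, adjusted p = 0.00553, the 48 h call was lost under 9 of 19 alternatives, and against untreated brain it was -0.21 ± 0.12 and 0.08 ± 0.12. Ptgds, the prostaglandin D synthase of oligodendrocytes, leptomeninges and choroid plexus, ranged from 12.76 to 13.34 and did not pass (-0.19 ± 0.15 and -0.11 ± 0.15). With median centring the 48 h value of Ptgds was 0.12. Choroid plexus markers gave 1 of 8 higher at 48 h and 0 at 72 h, with a summed level of 12.72 to 12.77 untreated, 12.49 to 12.92 contralaterally and 12.78 to 12.97 ipsilaterally. All 8 measured markers of activated phagocytes rose under both protocols, with a summed level of 11.64 to 11.79 untreated, 11.77 to 12.20 contralaterally and 13.30 to 14.37 ipsilaterally, and their part in the results for Gsn and Apod was not tested.

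The contralateral hemisphere was also set against untreated brain, a comparison that shares the contralateral arrays with the hemisphere comparison and the untreated arrays with those that follow. Contralateral levels were below untreated ones for 18 of the 28 genes under each protocol, with medians of -0.08 at 48 h and -0.15 at 72 h, where those of all genes were 0.01 and 0.02. The members' medians were -0.038 and -0.0077 without the KO untreated array and -0.20 and -0.26 without the WT one, and the 72 h median was -0.051 without the KO contralateral 72 h array. With median centring the members had medians of 0.02 and 0.02 and all genes 0.10 and 0.17. At 48 h 1 member passed, Opalin (-1.01 ± 0.13, adjusted p = 0.0115, lower in both genotypes), where 0.0535% of all genes were lower and 0.353% changed either way. That call was lost without either untreated array or either contralateral 48 h array (adjusted p from 0.0519 to 0.159), and over all its alternatives the adjusted p ran from 0.000828 to 0.159. At 72 h 0 members passed, where 1.1% of all genes were higher and 0.299% lower, 1.4% in all, with 8 members at an unadjusted p under 0.05 in limma. Car2 came closest, at -0.54 ± 0.12, adjusted p = 0.056 after -0.58 ± 0.12, adjusted p = 0.0774 at 48 h, followed by Opalin (-0.52 ± 0.13, adjusted p = 0.0823) and Ugt8a (-0.66 ± 0.17, adjusted p = 0.0915).

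Compared with untreated brain, the 48 h ipsilateral hemisphere had 7 members higher and 3 lower, where 15.7% and 11.1% of all genes were called, 26.8% in all. The 7 were Pdgfra, Bcas1, Tspan2, Mobp, Cldn11, Klk6 and Apod, and the 3 were Cspg4, Gpr17 and Omg (-0.37 ± 0.11, adjusted p = 0.0326). At 72 h 10 were higher and 1, Omg (-0.36 ± 0.11, adjusted p = 0.0365), lower, where 14.4% and 9.11% of all genes were called. The 10 were Pdgfra, Olig1, Bcas1, Mag, Mobp, Cldn11, Gjb1, Klk6, Apod and Gsn. At 72 h the Olig1 call was lost under 10 of 16 alternatives, that of Mag under 9 and those of Gjb1 and Omg under 7 each. The calls of Bcas1, Mobp and Pdgfra were lost under 4, 3 and 2, and those of Cldn11, Klk6, Apod and Gsn under 0. Mobp, which passed in neither hemisphere comparison, was 0.47 ± 0.11, adjusted p = 0.0102 and 0.42 ± 0.11, adjusted p = 0.0181. With median centring the split was 23 higher and 0 lower at 48 h, where Omg became 0.14, and 14 and 0 at 72 h. With quantile normalisation both counts, and the calls over all genes, fell without either untreated array or either ipsilateral array of the protocol. The members' median difference, 0.21 at 48 h, was 0.24 without the KO ipsilateral and 0.17 without the WT ipsilateral array. At 72 h it was 0.25 with all arrays, and 0.35 and 0.24 without those of that protocol. Without the KO untreated array the medians were 0.25 and 0.35, and without the WT untreated array 0.12 and 0.15.

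Between genotypes 1 of the 28 genes passed over the 5 conditions, Apod, which was higher in KO, where 0.535% of all genes were higher and 0.631% lower, 1.17% in all, and 8 members had an unadjusted p under 0.05. Its difference was 0.77 ± 0.15, adjusted p = 0.0486 (1.7-fold), higher in 5 of 5 conditions, by 0.053 in untreated brain, 0.90 contralaterally and 0.54 ipsilaterally at 48 h, and 1.31 and 1.04 at 72 h. The call was lost under 12 of 18 alternatives, among them the fit without any 1 of the 8 operated arrays (adjusted p from 0.0891 to 0.179), and the adjusted p ran from 0.00952 to 0.938 over all of them. Next were Pllp (0.32 ± 0.09, adjusted p = 0.136, higher in KO in 5 of 5 conditions) and Opalin (0.27 ± 0.08, adjusted p = 0.15, higher in 5 of 5), which did not pass. Mature myelin genes were higher in KO for 10 of 12 in untreated brain (median 0.25), 9 contralaterally at 48 h (0.16), 6 ipsilaterally at 48 h (0.075), 8 contralaterally at 72 h (0.069) and 6 ipsilaterally at 72 h (0.025), each from 1 array per genotype. Of all genes 54.4%, 50.3%, 48.2%, 46.9% and 45.7% were higher in KO in these conditions in that order. The 4 genes of differentiating cells were higher in KO for 4, 1, 1, 0 and 1 of 4, and the 2 lipid enzymes for 2, 1, 0, 0 and 0 of 2. Klk6 was higher in KO in 4 of 5 conditions (0.47 ± 0.17, adjusted p = 0.197) and Ugt8a lower in 4 of 5 (-0.30 ± 0.11, adjusted p = 0.196).

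The genotype difference in ipsilateral tissue differed from that in other tissue for 0 of 28 members and 0 of all genes (limma, 0%), with 2 members and 359 genes at an unadjusted p under 0.05. The 2 were Gpr17 (-0.85 ± 0.26, adjusted p = 0.998) and Cnp (-0.38 ± 0.16, adjusted p = 0.998). KO minus WT for Gpr17 was 0.30 in untreated brain, -0.19 and -0.24 contralaterally and -0.49 and -1.30 ipsilaterally at 48 and 72 h. Cd93 lies on chromosome 2, as do 5 of the tested members. Nkx2-2 is the nearest, with 4 protein-coding genes between it and Cd93 in the RefSeq gene order, and was lower in KO in 4 of 5 conditions (-0.23 ± 0.09, adjusted p = 0.229).

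**Figure D5:**
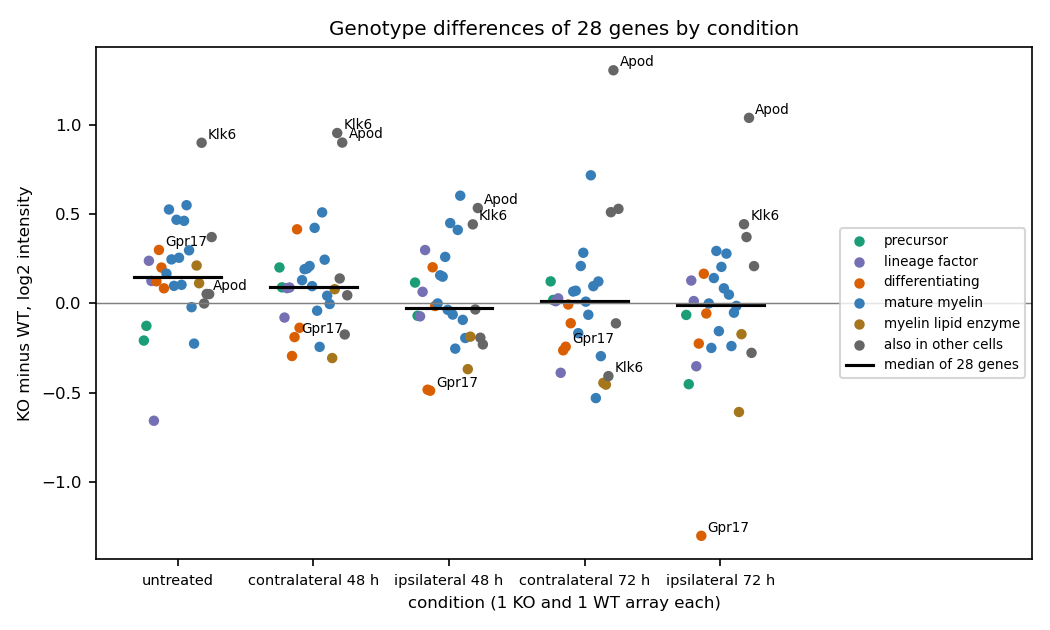
KO minus WT difference (log2 intensity, vertical axis) of each of the 28 genes in each of the 5 conditions (horizontal axis, 1 KO and 1 WT array each), coloured by role, with the median of the 28 as a bar. Apod lies at 0.053 in untreated brain and at 1.31 and 1.04 in the 72 h hemispheres, and Gpr17 lies at -1.30 in the ipsilateral 72 h hemisphere.

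Other genes of the lineage were described from lists that leave out the 28 members. Of 30 other measured oligodendrocyte and myelin genes (38 listed), 8 were higher and 1 lower at 48 h and 7 higher and 0 lower at 72 h, with medians of 0.19 and 0.30. The largest were Trf, the iron carrier transferrin (1.53 and 1.86), Cd9, a tetraspanin of myelin and of many other cells (1.14 and 1.48), and Adamts4, a protease of mature oligodendrocytes (1.07 and 0.95). Of 9 measured brakes on differentiation (13 listed), 3 were lower and 1 higher at 48 h and 2 lower at 72 h. Hes5, a Notch effector that astrocytes also express, fell at both times (limma, -0.99, adjusted p = 0.00181, and -0.67, adjusted p = 0.0151). Id4, an inhibitor of helix-loop-helix factors, fell at 48 h (-0.84, adjusted p = 0.00899), while Notch1, a receptor for signals that hold precursors back, rose then (0.55, adjusted p = 0.0206). These calls used quantile normalisation. With median centring 43 of all genes were lower at 48 h against 754, and values of these genes under it are not given here. Of 9 measured genes of a list associated with oligodendrocytes after injury (11 listed), 7 were higher and 0 lower under each protocol. Largest at 48 h were Anxa2, an annexin (2.02), Il33 (1.74) and Serpina3n, a protease inhibitor (1.69). At 72 h they were Anxa2 (2.08), Serpina3n (2.07) and Cd63 (1.70). Anxa2 and Serpina3n are also made by other cells. Serpina3n was also called higher contralaterally than in untreated brain (2.24 at 48 h and 1.77 at 72 h). Between genotypes Hapln2, a matrix link protein of nodes, was higher in KO (0.54, adjusted p = 0.00966) and Elovl6, a fatty acid elongase, was lower (-0.47, adjusted p = 0.0331).

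Markers of other cells differed between the hemispheres too. Neuronal markers gave 2 of 13 lower at 48 h and 1 at 72 h, and striatal neuron markers 7 and 8 of 8 lower, with summed levels of 12.09 to 12.14 untreated, 11.84 to 12.09 contralaterally and 10.49 to 11.03 ipsilaterally. Rgs9, a signalling regulator of striatal neurons, fell by 1.51 and 1.48. All calls of marker genes used quantile normalisation, and with median centring 43 of all genes were lower at 48 h against 754. Of 12 astrocyte markers 3 were higher and 3 lower at 48 h and 3 higher at 72 h, with the filament gene Gfap at 1.61 and 1.46. Resting microglia markers gave 5 and 6 of 8 higher, and endothelial markers 7 higher and 1 lower of 11 at 48 h and 6 higher at 72 h. Of 10 measured genes of the hindbrain and hypothalamus 1 was higher and 3 were lower at 48 h, and 2 were higher and 0 lower at 72 h. The largest at 48 h were the hypothalamic peptide gene Oxt (-2.18, adjusted p = 0.017) and Pcp2, a gene of cerebellar Purkinje cells (1.64, adjusted p = 0.000221, not detected on 8 of 10 arrays), and at 72 h Tph2, of serotonergic neurons (2.12, adjusted p = 0.00101). The summed level of that list was 11.01 to 11.33 untreated, 11.17 to 11.63 contralaterally and 10.84 to 11.25 ipsilaterally. The part of these lists in the results for the lineage genes was not tested.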

How the data were processed

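RNA from 10 mouse brain samples (2 genotypes, 5 conditions, 1 array each) was extracted with Trizol, labelled as biotinylated cRNA and hybridised to Illumina Mouse-6 arrays, per the labels' protocols. The scanner tables deposited by the authors give a raw intensity per probe, not normalised, and a detection p-value per probe, which from its values was deposited as 1 minus p. The authors' value table of the same arrays was used as an alternative, and its values show quantile normalisation within 5 pairs of arrays. The scanner software version is not given in the sources used here.

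Intensities were background-corrected (normexp with an offset of 16), quantile-normalised and put on the log2 scale with limma 3.58.1 in R 4.3.3. A probe was kept if its detection p was under 0.01 on at least 2 arrays (16067 of 46373 probes), and the brightest kept probe stood for its gene. Of all probes 29800 had 1 gene symbol, 10 several and 16563 none, and 29758 were matched to RefSeq. The fit was additive over condition and genotype, with 4 residual degrees of freedom (3 with an interaction), over 9351 genes. P-values were adjusted by Benjamini and Hochberg over all of them, with a threshold of 0.05. As no array has a replicate, they set a difference against the spread left between genotypes and conditions, moderated over all genes. That spread may be technical. The number of arrays limits the precision.

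The genes and lists were chosen with earlier results of these data known. Genes were named by a rule: each of the 34 is named, and those past the threshold in a hemisphere comparison are given with every array's level. Of each other list of lineage genes, up to 3 with the largest changes of 1 sign in both genotypes are named per hemisphere comparison. Of the lists of cell markers fewer or none are named. Hapln2, Elovl6, Rras2, Fyn and H2-K1 were named after their values were seen. The fit was tested on simulated data. Alternatives covered the background correction, normalisation, detection filter, probe choice, variance prior, arrays in the fit, each array left out and, chosen after seeing the data, pairs of hemispheres as a block.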

Additional observations from a re-analysis of the deposited data

Results flagged for a closer look

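Cnp was the gene whose hemisphere difference had opposite signs under the protocols in both genotypes. It was -0.09 in WT and -0.22 in KO at 48 h, and 0.59 and 0.15 at 72 h. The difference between protocols was 0.53, and its test did not pass (limma, adjusted p = 0.419). Median centring turned the 48 h value to 0.34.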

How the results depend on the processing

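The labels give no replicate numbers. A fit with the 2 hemispheres of a genotype and protocol as a replicate block (4 pairs, 2 residual degrees of freedom) was chosen after seeing the data. It called 17 members at 48 h, 15 at 72 h and 0 for the difference between protocols. Over all genes it called 1585 higher and 1277 lower at 48 h, and 1205 and 783 at 72 h. With an array left out, the lone array of its arm is assumed to vary like the others, and the calls over all genes also changed. Counts of called members then ran from 4 to 13 (ipsilateral minus contralateral, 48 h), 5 to 13 (72 h), 0 to 2 (contralateral minus untreated, 48 h), 0 to 1 (72 h), 4 to 11 (ipsilateral minus untreated, 48 h), 4 to 10 (72 h) and 0 to 2 (genotype), and stayed 0 for the difference between protocols and for the genotype difference by hemisphere. Values that changed sign ran from -0.20 to 0.36 (Mal at 48 h), -0.34 to 0.091 (Cspg4 at 72 h), -0.30 to 0.089 (Ptgds at 72 h), -0.28 to 0.87 (Gpr17 at 72 h), -0.012 to 0.079 (Mbp at 72 h) and -0.060 to 0.60 (Mal at 72 h). With median centring the hemisphere count was 21 at 48 h, the contralateral count was 2 at 48 h and the ipsilateral count against untreated brain was 23 at 48 h. It also turned the 48 h hemisphere differences of Cspg4 to 0.050, Cnp to 0.34, Omg to 0.11, Nkx6-2 to 0.30 and Ptgds to 0.12, that of Cspg4 at 72 h to 0.039, and against untreated brain at 48 h Cspg4 to 0.0024 and Omg to 0.14. All genes then split into 6320 higher and 85 lower against 1467 and 1040 in that last comparison, and 2392 and 122 against 1350 and 852 at 72 h. The mean of all detected probes turned Mbp to -0.19 at 48 h. The contralateral count at 48 h was 3 without background correction, 0 with no detection filter and 2 with genes detected on all 10 arrays or with a variance trend. At 72 h it was 2 without background correction, 1 with all 10 arrays and 3 with the trend. The 4 arrays of the 48 h protocol alone gave 18 in the hemisphere comparison, with 1774 of all genes higher and 1497 lower. The genotype count was 0 with no detection filter, with the variance trend, with genotype alone and in untreated and contralateral arrays. The cause of these changes was not tested. The authors' value table was not run for comparisons across its pairs of arrays. Outside the fits that leave out an array, 569 values kept their side, 43 passed newly, 23 no longer passed and 9 reversed, and in those fits 631, 12, 139 and 8. Dim genes near background have the least certain differences.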
